A study of Rattus norvegicus with 56 samples.

Results

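The regions described here are 428 short stretches of rat brain chromatin that carried the promoter mark H3K4me3 in every untreated tissue sampled, and that had an H3K9ac peak in untreated haemorrhage-side tissue of old rats and after plasma of 22-month rats, but no H3K9ac peak after plasma of 3-month rats. Members were chosen by these peak calls, so the calls themselves are no finding. The regions were found by joining overlapping H3K4me3 peaks of 4 untreated tissues into 56333 regions, keeping the 18912 with a peak in all 4, leaving out those with an H3K27me3 peak in any of 4 untreated tissues (11102 remained), and asking for H3K9ac in untreated 21-month ipsilateral tissue (10694 remained). Of these 10694 regions, 10150 had an H3K9ac peak with both plasmas and are called retained regions. The reverse pattern, a peak with 3-month plasma and none with 22-month plasma, was found in 34 regions, called mirror regions, and 82 had a peak with neither plasma.

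H3K4me3 is placed around the start sites of active and poised genes, and H3K9ac is a histone acetylation found at promoters and enhancers in use, where it is laid down by acetyltransferases such as GCN5 and PCAF and removed by histone deacetylases. H3K27me3 is the mark of Polycomb repression. In brain, H3K4me3 without H3K27me3 typically marks promoters of broadly expressed genes and of genes that the resident cell types use, and most such promoters are acetylated.

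All tissue was brain of rats that had an intracerebral haemorrhage (bleeding within the brain), at 13 or 21 months by the labels of the samples. For the older rats the series text has 22 months instead. Ipsilateral tissue is from the bleeding side and contralateral tissue from the other. Untreated groups were 13-month and 21-month rats, each side, for H3K4me3, H3K9ac and H3K27me3. Plasma groups were 21-month rats, ipsilateral tissue only, given plasma of 3-month or 22-month rats, for H3K9ac and H3K27me3. All animals had a haemorrhage, whole tissue was used so that cell types are mixed, and fewer cells of a type and less mark per cell cannot be told apart. Strain, sex, plasma dose and the interval after the bleed are not given in the labels. Each untreated list of peaks pools 2 ChIP libraries and each plasma list rests on 1, so no value below has a spread between replicates, and no group difference was tested. The labels do not say whether libraries came from separate animals. Intervals given after a share are 95% Wilson intervals over regions and cover counting error only.

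The lists that define the regions differed in size. With 3-month plasma the authors called 50651 H3K9ac peaks from 57426239 ChIP tags, with 22-month plasma 123863 from 56130825, and in untreated 21-month ipsilateral tissue 102607 from 66910243. Peaks with a fold of 8 or more (the authors' enrichment at the summit over the local background) numbered 682, 10261 and 5736 in the same order. Input tags were 52175480, 45651518 and 74135382, and the median fold over all peaks was 3.39, 3.37 and 2.96. The 3-month plasma list thus had fewer peaks and fewer strong ones, at a median peak fold that was not lower. In the 10150 retained regions the fold with 3-month plasma was 0.478 times that with 22-month plasma at the median (middle 50% of regions 0.376 to 0.633), and it was the higher of the pair in 553 regions. The part of these differences between lists in the missing peaks was not tested, and both plasma lists rest on 1 ChIP library each.

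Missing H3K9ac peaks were more frequent with 3-month than with 22-month plasma, though most regions kept their peak with both. The 428 members are 4.0% of the 10694 regions that could have been members, and the 34 mirror regions are 0.318%. These shares follow from the rule and are given as a description. Over all 102607 H3K9ac peaks of untreated 21-month ipsilateral tissue, promoter-type or not, 36.5% had a peak with 22-month plasma and none with 3-month plasma, and 2.30% showed the reverse. Constitutive H3K4me3 regions that also carried H3K27me3 in an untreated tissue stood between, with 17.6% and 0.375% of 7457. These 7457 were limited to regions with an H3K9ac peak in untreated 21-month ipsilateral tissue. No test of these shares against each other was made. When the 2 longer H3K9ac lists were cut to the 50651 peaks of lowest q-value, members numbered 321 and mirror regions 90. The 321 all lay among the 428, since shortening these 2 lists can only remove members.

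Members were short. Their median length was 620 bp, with the middle 50% between 443 and 841 bp and a full range of 187 to 3055 bp. Retained regions had a median of 1748 bp, and mirror regions of 511 bp. Of the members 369 (86.2%) were shorter than 1 kb, against 18.1% of retained regions, and 9 reached 2 kb, against 38.0%. The share of regions that were members was 32.7% (24.4 to 42.2) below 300 bp, 16.4% from 500 to under 750 bp and 9.63% from 750 to under 1000 bp. It was 1.81% from 1000 to under 1500 bp and 0.281% from 2000 to under 3000 bp.

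H3K4me3 was weaker at the members than at retained regions. The median fold was 4.10 in 13-month ipsilateral, 3.61 in 13-month contralateral, 4.54 in 21-month ipsilateral and 6.27 in 21-month contralateral tissue. Retained regions had medians of 10.3, 9.93, 12.4 and 16.7 in the same tissues. The order of the 4 tissues was the same in both classes, and the 21-month contralateral list held the highest of the 4 folds in 72.7% of members and 78.5% of retained regions. The lowest of a member's 4 folds had a median of 2.99, and it reached 4 in 122 members and 8 in 20, or 4.67% of members against 66.0% of retained regions. Accordingly, 122 members remained when only H3K4me3 peaks of fold 4 or more were used, with 13 mirror regions. The median fold over all H3K4me3 peaks of these lists was 4.32, 4.22, 5.72 and 5.71 in the same order of tissues. The member median was above it in 21-month contralateral tissue and below it in the others. The name promoter-type rests here on H3K4me3 alone, since no gene was assigned to any region.

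**Figure D1:**
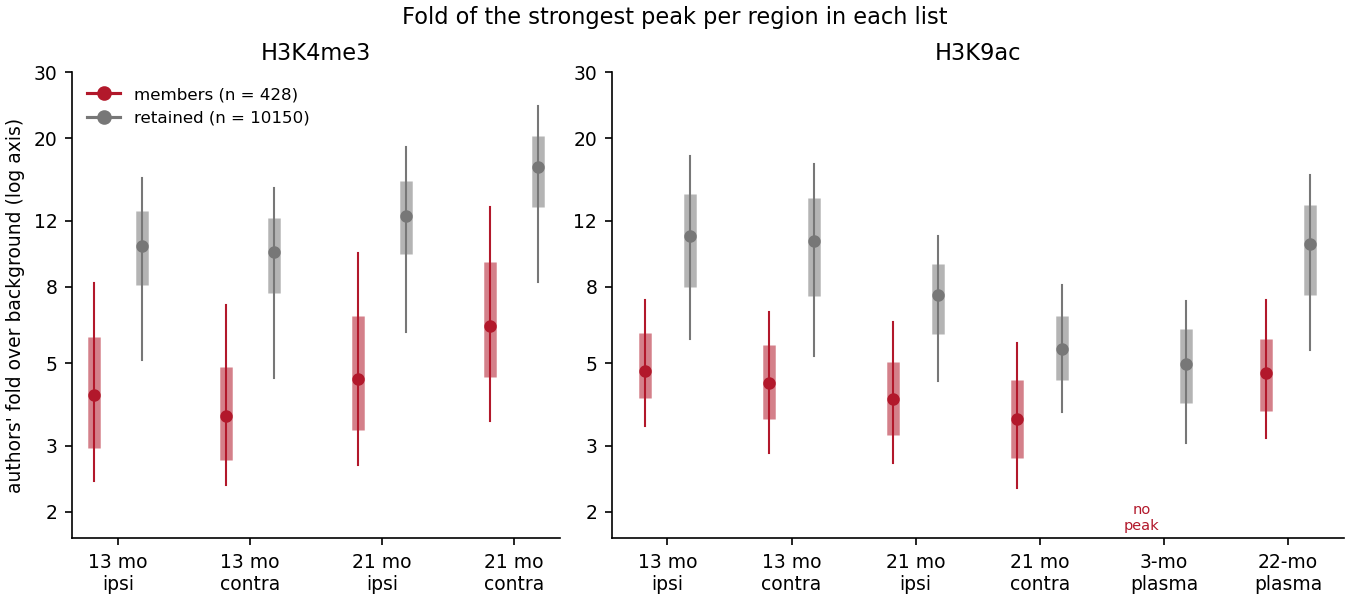
Fold of the strongest peak per region (log axis) in the 4 H3K4me3 lists and the 6 H3K9ac lists, for members and retained regions. Points are medians, thick bars the middle 50% and thin lines the 10th to 90th percentile of the regions with a peak in that list, and members have no peak with 3-month plasma by the rule. Members lie below retained regions in each list that has both, with H3K4me3 medians of 3.61 to 6.27 against 9.93 to 16.7.

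The H3K9ac peaks of members in the 2 lists that the rule required were weaker than those of retained regions. All of them passed the calling limit by the rule. Their median folds were above those over all peaks of these lists, 2.96 untreated and 3.37 with 22-month plasma. In untreated 21-month ipsilateral tissue the median fold was 4.0 (middle 50% 3.20 to 5.04, highest 19.3), and with 22-month plasma 4.71 (3.73 to 5.79, highest 15.2). Retained regions had medians of 7.59 and 10.4. The peak with 22-month plasma had the higher fold in 280 of 428 members, with a median ratio of 1.16, while in retained regions this ratio was 1.39. Folds of different lists were set side by side without correction for depth or background. The lower of a member's 2 −log10 q-values had a median of 9.37, against 50.1 in retained regions. It was 5 or more in 353 members and 10 or more in 197. How near the members lay to the calling limit of the 3-month plasma list was not tested. The H3K9ac summit lay inside the region in 406 members (94.9%) in untreated tissue and in 388 (90.7%) with 22-month plasma. In retained regions these shares were 99.0% and 98.6%. Peaks covered 83.9% and 92.6% of a member at the median. The offset of the summit from the region's centre was not measured.

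Regions with weaker untreated H3K9ac were more often members. Below a fold of 3 in untreated 21-month ipsilateral tissue, 82 of 297 regions were members (27.6%, 22.8 to 33.0). The share was 20.4% from 3 to under 4, 11.4% from 4 to under 5, 4.81% from 5 to under 6 and 1.04% from 6 to under 8. From 8 to under 10 it was 0.406%, or 11 of 2711 regions, and from 10 to under 15 it was 0.384%. At 15 or more it was 2.54% (0.868 to 7.21), or 3 of 118. The share by the fold with 22-month plasma was taken over the 10578 regions with a peak there. It was lower in each higher bin, from 37.1% below 3 to 0.149% from 10 to under 15 and 0.0692% (1 of 1445) at 15 or more. Mirror regions stayed between 0% and 2.31% in every bin of untreated fold. Strength and length both went with the share. Among regions with an untreated fold of 6 or more, 6.14% (4.68 to 8.03) of the 798 shorter than 1 kb were members but 0.0728% (0.0311 to 0.170) of the 6864 longer ones. Below a fold of 4 the shares were 28.3% and 9.25%. Of wide, strongly acetylated regions, 5 were thus members.

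**Figure D2:**
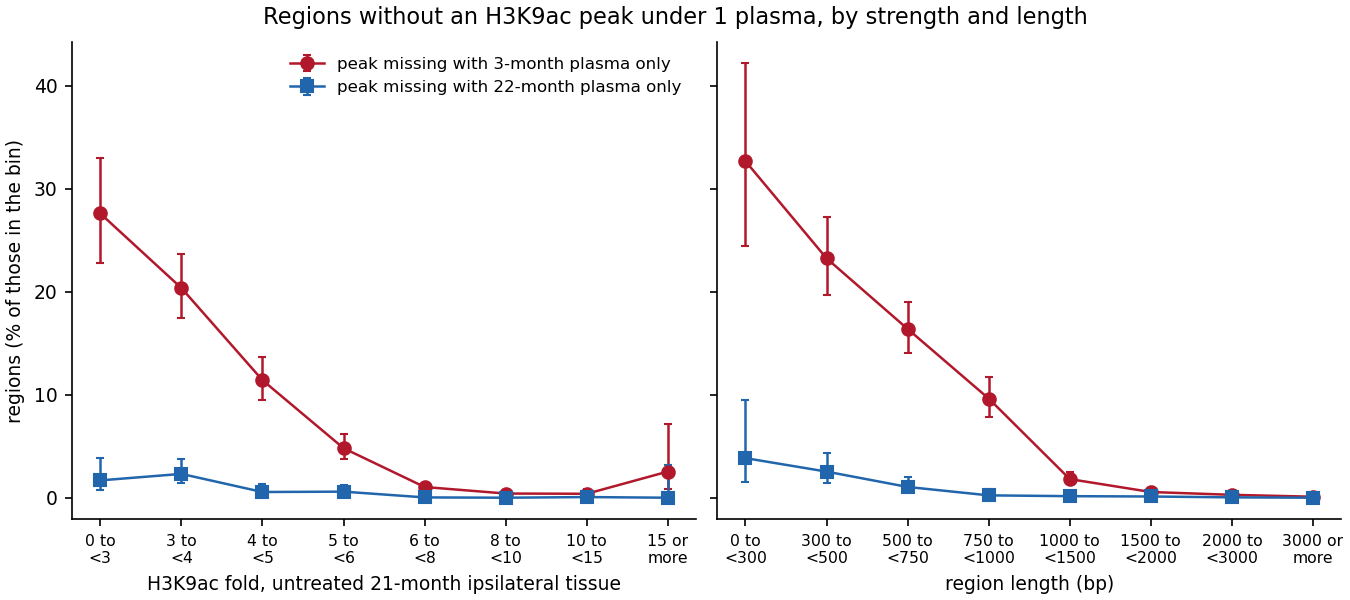
Share of the 10694 regions (%) with a peak missing with 3-month plasma alone (circles) or with 22-month plasma alone (squares), by untreated H3K9ac fold (left) and region length (right), with 95% Wilson intervals as bars. The share without a peak with 3-month plasma was 27.6% in the lowest fold bin and 32.7% in the shortest length bin, while the reverse stayed at 3.85% or less.

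The other 3 H3K9ac lists, of 13-month ipsilateral, 13-month contralateral and 21-month contralateral tissue, played no part in the choice of members. Most members had a peak there. In 13-month ipsilateral tissue 340 of 428 members did (79.4%, 75.4 to 83.0), in 13-month contralateral tissue 386 (90.2%, 87.0 to 92.7) and in 21-month contralateral tissue 379 (88.6%, 85.2 to 91.2). Retained regions had 98.7%, 99.4% and 99.8%. The 13-month ipsilateral list came from 19323327 tags kept, with 82% duplicates, the fewest tags of the 6 H3K9ac lists. Median folds at members with a peak were 4.77, 4.43 and 3.53, against 11.0, 10.6 and 5.47 at retained regions. In all 3 lists 296 members (69.2%) had a peak, 94 had 2 peaks of the possible 3, 29 had 1 and 9 had none. For mirror regions 55.9% and for retained regions 98.2% had all 3.

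At equal untreated strength the members were also the weaker ones elsewhere. Among regions with an untreated 21-month ipsilateral fold from 4 to under 5, 85.4% of members and 96.0% of retained regions had a 13-month ipsilateral peak, with median folds of 4.39 and 6.77. For 13-month contralateral tissue the shares were 91.3% and 97.8% and the folds 4.40 and 6.15, and for 21-month contralateral tissue 90.3% and 99.9%, with 3.55 and 4.60. From 6 to under 8 the 13-month ipsilateral median was 5.26 for the 34 members and 10.9 for the 3232 retained regions. Both the share and the median fold were lower for members in each of the 5 bins below a fold of 8 and in each of the 3 lists. Members were also shorter than retained regions, and no comparison at equal strength and length together was made. These differences were not tested.

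The 296 members with H3K9ac in every list but the one of 3-month plasma can be set beside the same count for the other lists. Among the 11102 H3K27me3-free constitutive regions, 296 (2.67%) lacked a peak with 3-month plasma alone, 107 in 13-month ipsilateral tissue alone, 79 in untreated 21-month ipsilateral tissue alone and 39 in 13-month contralateral tissue alone. With 22-month plasma alone 19 lacked a peak, and in 21-month contralateral tissue alone 13. In the same order these lists held 50651, 69557, 102607, 93770, 123863 and 120348 peaks. The 3-month plasma and 13-month ipsilateral lists were the shortest and had the highest counts. The 22-month plasma and 21-month contralateral lists were the longest and had the lowest. The orders of length and count were close but not the same, and the part of list length was not tested. In these 296 members the fold was highest with 22-month plasma in 90 and in 13-month ipsilateral tissue in 97, and lowest in 21-month contralateral tissue in 137. Medians over them were 4.82 and 4.51 in 13-month ipsilateral and contralateral tissue, 4.15 and 3.59 in 21-month ipsilateral and contralateral tissue and 4.88 with 22-month plasma.

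**Figure D3:**
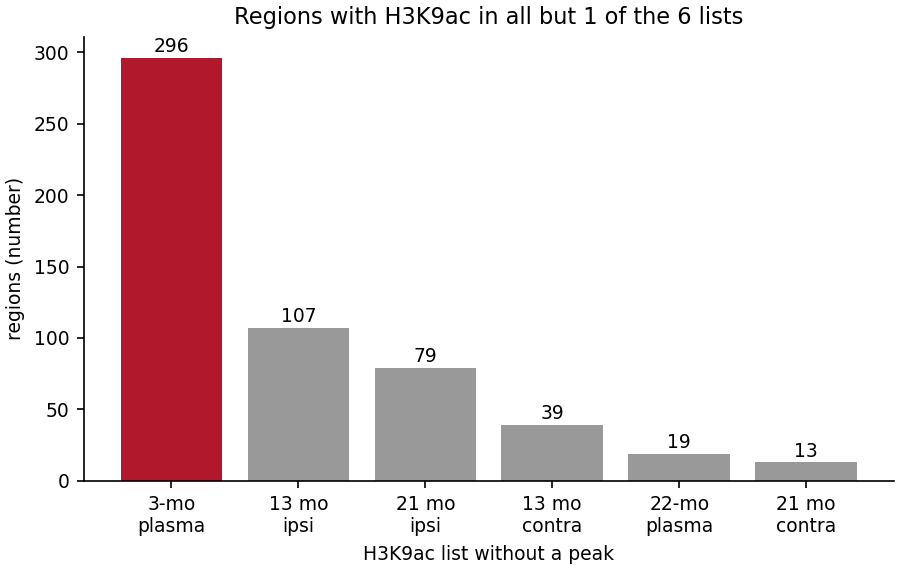
Number of the 11102 H3K27me3-free constitutive H3K4me3 regions that had an H3K9ac peak in 5 of the 6 lists, by the list that lacked the peak. The bar for 3-month plasma stands at 296 and the others at 13 to 107.

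The distance from a member to an H3K9ac peak with 3-month plasma varied widely. The nearest H3K9ac peak with 3-month plasma lay 9.06 kb away at the median, from 55 bp to 1022 kb, with none on the same unplaced scaffold for 2 members. It was closer than 1 kb in 93 members (21.7%) and 10 kb or more away in 203 (47.4%). For regions with a peak with neither plasma the median was 3.66 kb, and 37.8% were closer than 1 kb. Another constitutive H3K4me3 region lay within 1 kb of 97 members (22.7%), of 11.9% of retained, 38.2% of mirror regions and 39.0% of those with a peak with neither plasma. That neighbour had an H3K9ac peak with 3-month plasma in 85 of the 97 cases and was the longer of the pair in 80, with a median of 1215 bp against 535 bp. Of all 10694 regions 95.2% had a 3-month plasma peak and the median length was 1699 bp. Neighbours could be any of the 18912 constitutive regions, including ones with H3K27me3 or without H3K9ac. The values of the 10694 are thus a background for part of the neighbours only. In 9 members both the untreated and the 22-month plasma peak reached beyond the region to overlap a 3-month plasma peak outside it, and in 397 (92.8%) neither did. Members closer than 1 kb to such a peak and those farther away had close medians, with untreated folds of 4.20 and 3.96, 22-month plasma folds of 5.02 and 4.60, and lengths of 519 and 649 bp. With the 93 left out, 335 members and 20 mirror regions remained, the latter after the same step for 22-month plasma peaks.

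**Figure D4:**
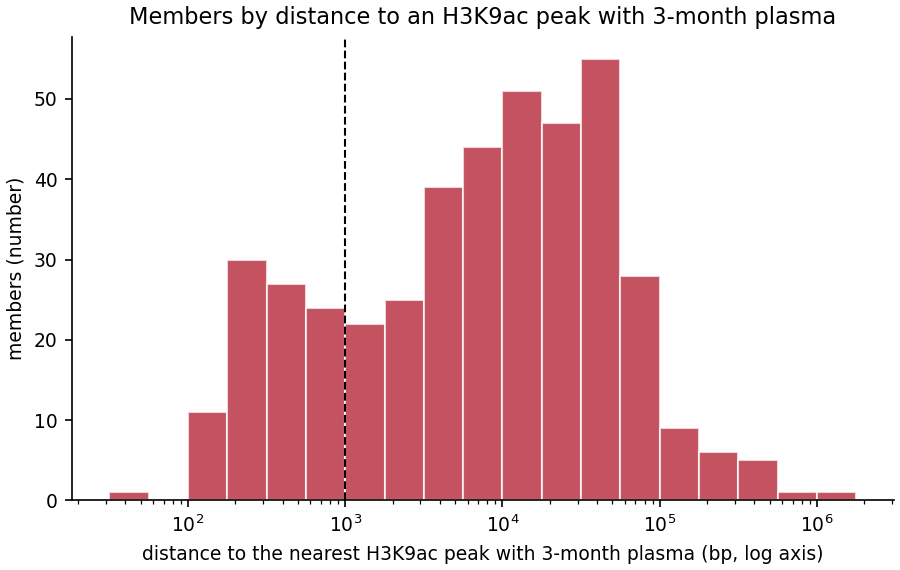
Number of members by distance to the nearest H3K9ac peak with 3-month plasma (bp, log axis), for the 426 members with such a peak on their chromosome. The dashed line marks 1 kb, with 93 members to its left, and 203 members lie at 10 kb or more.

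Ranked by the lower of their untreated 21-month ipsilateral and 22-month plasma folds, the first 10 were all shorter than 1 kb, 7 had a 3-month plasma peak within 500 bp and 8 had another constitutive H3K4me3 region within 500 bp. Over all members these shares were 15.2% and 17.3%. Of the 10, 8 were no longer members when H3K4me3 peaks within 500 bp were joined, and 7 when no 3-month plasma peak within 1 kb was allowed. The first, chromosome 5, 172624264 to 172624721 (458 bp), had H3K9ac folds of 13.4 in untreated 21-month ipsilateral tissue and 10.9 with 22-month plasma. It had 16.4 and 3.98 in 13-month ipsilateral and contralateral tissue and 3.31 in 21-month contralateral tissue. Its H3K4me3 folds were 13.9 and 11.8 at 13 months and 12.9 and 18.8 at 21 months (ipsilateral, then contralateral), and a 3-month plasma peak lay 195 bp away. Both 21-month ipsilateral lists took part in its ranking, so their height is no finding. Chromosome 10, 55969917 to 55970536, showed folds of 11.7 untreated and 9.68 with 22-month plasma, with 6.13, 4.40 and 3.74 in 13-month ipsilateral, 13-month contralateral and 21-month contralateral tissue. Chromosome 3, 92291250 to 92291692, had 13.5 and 9.67, with 3.87, 5.86 and 3.47 in those 3 tissues. Nearest 3-month plasma peaks lay 226 and 205 bp from these regions. The fourth, chromosome 3, 151355653 to 151355839, was the shortest member at 187 bp. Its folds were 11.5 and 8.98, with 10.7 and 2.58 at 13 months and no peak in 21-month contralateral tissue.

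The other 6 of the first 10 lay from 163 bp to 17.7 kb from a 3-month plasma peak. Chromosome 10, 103937228 to 103938147 (920 bp), had the highest 22-month plasma fold of the 10, at 14.8, with 8.46 untreated, 13.1 and 13.0 in 13-month ipsilateral and contralateral tissue and 5.92 in 21-month contralateral tissue. Its H3K4me3 folds were 2.31 to 3.93, and a 3-month plasma peak lay 1.34 kb away. Chromosome 7, 140673208 to 140673646, had H3K4me3 folds of 1.98 to 3.82 and H3K9ac folds of 7.77 untreated and 9.29 with 22-month plasma, and with 14.9, 8.09 and 6.26 in the other 3 tissues. A 3-month plasma peak lay 292 bp from it. Folds of the 2 marks come from different antibodies and do not rank one mark above the other. Chromosome 3, 163270625 to 163271280, was 17.7 kb from the nearest 3-month plasma peak. It had 7.70 untreated, 7.55 with 22-month plasma, and 10.2, 6.15 and 3.37 in the 3 tissues not used by the rule. Chromosome 4, 64969134 to 64969961, was 1.93 kb away and had H3K9ac folds of 5.23 to 7.89 in all 5 lists. The remaining 2 of the first 10 had no 13-month ipsilateral peak. Chromosome 7, 114891406 to 114891685, had 7.91 untreated and 9.62 with 22-month plasma, 374 bp from a 3-month plasma peak. Chromosome 1, 98048446 to 98048747, had 10.5 and 7.36, at 163 bp.

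**Figure D5:**
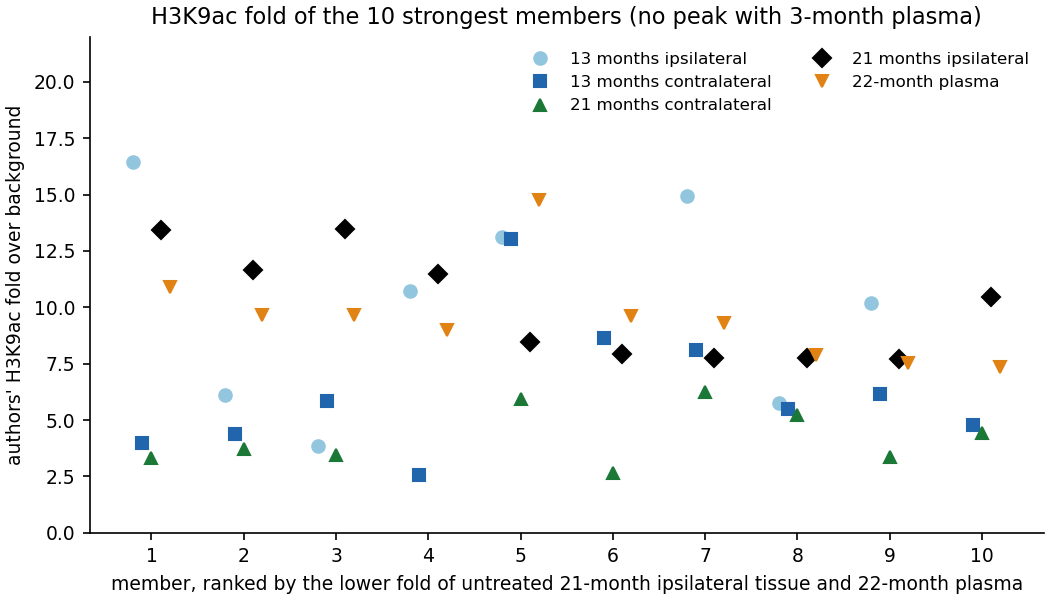
H3K9ac fold of the 10 members with the highest lower fold, in the 5 lists where members can have a peak, with 1 point per region and list and no point where there was no peak. Untreated and 22-month plasma folds, which the ranking used, lie between 7.36 and 14.8, and the 9 21-month contralateral folds lie between 2.66 and 6.26 from a list whose folds were lower in retained regions too (median 5.47, against 7.59 and 10.4).

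The 5 longest members lay 4.50 kb or more from a 3-month plasma peak. Chromosome 1, 82254658 to 82257712, spanned 3055 bp with H3K9ac folds of 3.69 untreated and 5.16 with 22-month plasma and a 3-month plasma peak 4.50 kb away. Chromosome 7, 119351773 to 119354389 (2617 bp), had 5.94 and 4.80 and H3K4me3 folds of 7.65 to 17.8. Its nearest 3-month plasma peak lay 54.5 kb away. Chromosome 4, 59452442 to 59454953 (2512 bp), lay 426 kb from such a peak and was acetylated in each of the 5 other lists, with folds of 7.33 and 6.12 at 13 months, 4.56 and 4.69 at 21 months and 5.47 with 22-month plasma. Chromosome 3, 64021907 to 64024215 (2309 bp), had 3.92 and 5.96, 4.31 and 4.85, and 6.09 in the same order. Chromosome 7, 18440721 to 18443121 (2401 bp), had 2.76 untreated and 5.22 with 22-month plasma and no 13-month contralateral peak. Over these 5 regions the untreated and 22-month plasma folds ran from 2.76 to 6.09.

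By H3K4me3 the first 5 included 4 regions shorter than 500 bp with very strong signal. Chromosome 20, 5787688 to 5787953 (266 bp), had H3K4me3 folds of 21.8, 17.8, 29.9 and 24.0 in 13-month ipsilateral, 13-month contralateral, 21-month ipsilateral and 21-month contralateral tissue. Chromosome X, 54013991 to 54014212 (222 bp), had 20.8, 22.8, 17.7 and 29.1. Their H3K9ac folds were 8.57 and 15.3 untreated and 5.79 and 4.57 with 22-month plasma. The first lay 27.5 kb from a 3-month plasma H3K9ac peak and the second 315 bp. Chromosome 3, 13446215 to 13446599, had H3K4me3 folds of 11.4 to 22.5 and H3K9ac folds of 5.42 untreated and 5.96 with 22-month plasma, 37.9 kb from a 3-month plasma peak. Chromosome 7, 70349471 to 70350571 (1101 bp), was the one longer region, with H3K4me3 of 12.1 to 16.0, H3K9ac of 8.68 untreated and 6.44 with 22-month plasma, and 7.25, 7.16 and 4.68 in the other 3 lists. The fifth was the chromosome 5 region that also led by H3K9ac.

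The 3 members nearest to a 3-month plasma peak and the 3 farthest from one varied in strength. Chromosome 13, 55023951 to 55024426, lay 55 bp from a 3-month plasma peak and had folds of 5.14 untreated and 3.43 with 22-month plasma. Chromosome 14, 30333413 to 30333920, lay 100 bp away and had 3.67 and 12.2. Chromosome 3, 11389699 to 11390295, lay 110 bp away and had 3.92 and 7.69. Farthest was chromosome 13, 32453576 to 32454093, at 1022 kb, with 3.20 and 4.22 and a peak in all 3 lists not used by the rule. Chromosome 3, 20788710 to 20789054, followed at 593 kb, with 2.80 and 6.31 and strong H3K4me3 of 10.5 to 24.7, and chromosome X, 50598551 to 50600010, at 550 kb, with 4.37 and 3.18. Among retained regions, those just across the line of the rule had 3-month plasma peaks of −log10 q 1.32, led by chromosome 4, 26350482 to 26351325, with a fold of 1.96, and the smallest overlap with a 3-month plasma peak was 24 bp. Just inside, the member with the weakest required peak was chromosome 19, 60048735 to 60049377, with −log10 q of 1.45 and a fold of 1.98 with 22-month plasma.

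H3K27me3 peaks were rare at the members with either plasma. The rule had already left out every region with an H3K27me3 peak in any of the 4 untreated lists, so low counts were partly built in. Of the 428 members 1 had an H3K27me3 peak with 3-month plasma (0.234%, 0.0413 to 1.31) and 2 with 22-month plasma (0.467%, 0.128 to 1.69). Among retained regions 5 (0.0493%) and 3 (0.0296%) of 10150 did. Among mirror regions 0 of 34 did with either plasma, which allows a share of up to 8.82% by the rule of 3 counts (Wilson upper bound 10.2%). The region with 3-month plasma H3K27me3 was chromosome 7, 88198606 to 88199289, with a fold of 2.85. With 22-month plasma, chromosome 4, 175687592 to 175688046, had a fold of 3.98. The other was chromosome 15, 83401981 to 83402503, at 2.89. The median fold over all peaks was 3.36 in the 3-month and 3.38 in the 22-month plasma H3K27me3 list, so 2 of the 3 folds were below and 1 above the median of its list. Each of these regions had an untreated H3K27me3 peak 26 to 307 bp outside its border. The plasma H3K27me3 lists were short, with 37241 and 51178 peaks, against 300668 in untreated 21-month ipsilateral tissue, and the part of that in the low counts was not tested.

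Untreated H3K27me3 within 1 kb was found at a larger share of members, and of regions with a peak with neither plasma, than of retained regions. The rule used the same 4 lists to leave out regions with an overlapping peak, so only peaks outside a region could count. Members were also shorter than retained regions, and no comparison at equal length was made. At least 1 of the 4 untreated lists had an H3K27me3 peak within 1 kb of 90 members (21.0%), of 6.05% of retained regions, of 14.7% of mirror regions and of 22.0% of those with a peak with neither plasma. The median distance was 3.87 kb for members and 7.03 kb for retained regions. By list, such a peak lay within 1 kb of 4.21% and 2.57% of members in 13-month ipsilateral and contralateral tissue and 8.88% and 18.9% in 21-month ipsilateral and contralateral tissue. The shares for retained regions were 1.03%, 0.433%, 2.31% and 4.73%. By untreated H3K9ac fold, the share below 3 was 20.7% for members and 26.4% for retained regions, from 3 to under 4 it was 25.8% and 16.6%, and from 4 to under 5 it was 16.5% and 13.3%. From 5 to under 6 it was 17.5% and 8.68%, from 6 to under 8 it was 17.6% and 4.73%, and at 8 or more it was 6 of 20 members (30%) and 2.98%. The retained share was lower in each higher bin, while that of members had no such order. With plasma the shares within 1 kb were 1.40% of members with 3-month and 0.935% with 22-month plasma, or 6 and 4 regions, and 0.227% and 0.256% of retained regions.

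Members were spread over chromosomes 1 to 20 and X. The share of regions that were members ran from 2.22% on chromosome 8 (13 of 586, 1.30 to 3.76) to 5.99% on chromosome 12 (23 of 384, 4.02 to 8.83), around the 4.0% of the whole. Chromosome 1 held the most members, 55 of 1300 regions, and chromosome X 15 of 383. None of the 7 regions on chromosome Y and 2 of 15 on unplaced scaffolds were members. Along the chromosomes 355 members had no member as the next of the 10694 regions, while 73 lay in 36 runs of neighbours. All runs were pairs but 1, of 3 members at chromosome 5, 148624093 to 148675872. The 37 neighbouring pairs were 36.5 kb apart at the median, and 9 pairs lay closer than 10 kb.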

How the data were processed

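ChIP-seq peak lists of rat brain were used, 16 in all from 28 ChIP and 28 input libraries. Per the file headers, the authors called narrow peaks with MACS 2.1.1.20160309 at a q-value cutoff of 0.05, kept 1 tag per position and pooled 2 ChIP libraries per untreated list, with 1 per plasma list. The headers place both plasma lists in 1 folder and the untreated lists in others. Cutadapt, Bowtie2 and HOMER appear in the submitters' processing notes. The sources used here do not give the genome build, and positions are 1-based as deposited. No gene was assigned and no sequence printed, since the reference tables used here are on another named assembly. The deposited fold, a ratio to local background, and the deposited −log10 q-value describe peaks. The deposited pileup (a signal value) was not used. A fold per region is that of its strongest peak.

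Overlap of at least 1 bp counted as a peak in a region, with pandas 2.3.3, scipy 1.17.1 and numpy 2.4.6 under Python 3.11.15, and matplotlib 3.10.9 for figures. The overlap code gave the same counts as bedtools 2.31.1 for 56333 regions in 16 lists. When the 3-month plasma H3K9ac peaks at 200 retained regions were removed, 200 of 200 became members. This checks the code only, since the rule fixes that outcome. Members and lists were chosen with earlier results of these data known. Regions named are the 10 members with the highest lower H3K9ac fold of the 2 required lists, the 5 longest, the 5 with the highest lowest H3K4me3 fold, all with plasma H3K27me3, and the 3 nearest to and 3 farthest from a 3-month plasma H3K9ac peak. Runs and regions at the edge of the rule were named after their values were seen. The 2 libraries of an untreated group were pooled by the authors before peaks were called and a plasma group has 1, so no value has a spread between replicates and no test between groups was made. Shares have 95% Wilson intervals.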

Additional observations from a re-analysis of the deposited data

How the results depend on the processing

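No paired analysis was possible because the libraries of a group are pooled in 1 list and no result comes from a test; for the same reason no replicate could be left out. Over 9 other settings members outnumbered mirror regions. Each setting used the same peak lists, so these counts are not independent of one another. Members numbered 321 to 600 in 8 of them and 122 with H3K4me3 folds of 4 or more, where mirror regions were 13 and the members' share of regions 1.31%. With equal numbers of H3K9ac peaks mirror regions were 90 and the share 3.08%, and 84.4%, 94.4% and 91.9% of members had 13-month ipsilateral, 13-month contralateral and 21-month contralateral H3K9ac. Asking for no peak within 1 kb gave 20 mirror regions and a share of 3.13%, joining H3K4me3 within 500 bp a share of 3.41%, and ignoring H3K27me3 below fold 3 a share of 4.95% with 600 members. With H3K9ac peaks of fold 4 or more, 60.7%, 56.1% and 32.0% of members had a peak in those 3 tissues. H3K27me3 with 3-month plasma was at 0% of members in the 1 kb, 500 bp and H3K4me3 fold settings (and with 22-month plasma at 0% in the last), and at 1.40% when counted within 1 kb. The cause was not tested. Leaving out regions under 300 bp, added after seeing the data, gave 394 members. Of the 28 named regions 15 stayed members when H3K4me3 was joined within 500 bp, 16 when no peak within 1 kb was allowed and 23 with equal numbers.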

Other observations

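The 82 regions with untreated 21-month ipsilateral H3K9ac and a peak with neither plasma differed from the members in level. Their median length was 420 bp, and their H3K4me3 medians of 5.81, 6.07, 7.00 and 9.60 (13-month ipsilateral, 13-month contralateral, 21-month ipsilateral, 21-month contralateral) were above the 4.10, 3.61, 4.54 and 6.27 of the members. H3K9ac in the 3 lists not used by the rule was less frequent there, at 39.0%, 61.0% and 51.2%, and all 3 lists had a peak in 24.4% of them against 69.2% of members. The median untreated 21-month ipsilateral fold was 4.41 for these regions and 4.0 for members.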
